A study of Homo sapiens with 16 samples.

Results

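The comparison described here sets control Jurkat cells against control 6T-CEM cells, gene by gene. Its members are the sh-NC libraries alone, which are 8 of the 16 RNA-sequencing libraries of the study; the other 8 carry sh-SH2D1A, a short hairpin against SH2D1A. Both lines are labelled as T-cell acute lymphoblastic leukaemia (T-ALL) cells, and the control hairpin sh-NC is shared by every library compared here. The Jurkat side holds 2 libraries of day 8 and 2 of day 10. The 6T-CEM side holds 2 libraries of day 5 and 2 of day 10, so day 10 is the sampling time that the lines share. What day 0 stands for is missing from the labels, as is the way the hairpin was delivered and selected. The labels do not say whether libraries of a group are separate cultures, so the p-values measure the spread between these libraries, which may be technical. Each line and day was deposited as a table of its own, so line and handling cannot be told apart.

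T-ALL arises from T cell precursors, and its cells often carry features of a stage at which thymocytes stop maturing. Early thymocytes rearrange their antigen receptor genes with the RAG recombinase, add bases at the joints with terminal transferase, show CD1 molecules and respond to NOTCH signals. More mature cells hold an alpha and a beta receptor chain at the surface with the CD3 chains, and signal through LCK, ZAP70 and LAT. Because each clone joins its own receptor segments, the segments in use mark the clone.

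The 8 libraries held between 27942231 and 33788024 counts, so that 3 counts correspond to 0.0888 to 0.107 per 1000000 counts of the library. Every level below is in CPM, counts per 1000000 counts of the library after its total was scaled by TMM. Mitochondrially encoded genes took 3.95% to 7.63% of the counts. In a principal component analysis the first component, with 55.2% of the variance, separated the lines. Jurkat libraries lay between 65.8 and 75.4, and 6T-CEM libraries between -88.6 and -52.4. The second component, with 18.6%, separated the 6T-CEM days, at -42.2 and -56.3 for day 5 and at 62.8 and 63.0 for day 10, whereas all Jurkat libraries lay between -19.3 and 1.03. Between the Jurkat days, 151 of 20800 genes (0.726%) were more than 2-fold apart in the group means. The 6T-CEM days were more than 2-fold apart at 1788 genes (8.60%). Between the lines, 6T-CEM day 10 differed in this way at 1768 genes (8.50%) from Jurkat day 8 and at 2184 (10.5%) from Jurkat day 10. For 6T-CEM day 5 the numbers were 3394 (16.3%) and 3341 (16.1%).

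**Figure D1:**
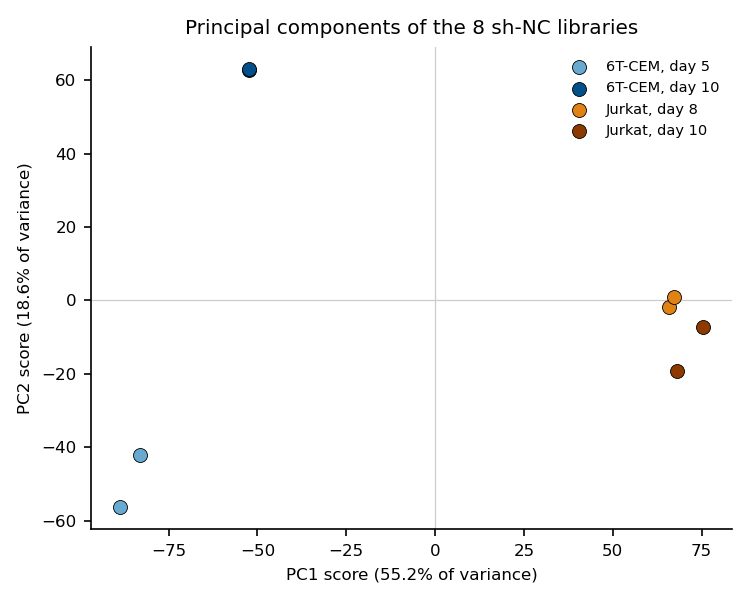
Scores of the 8 sh-NC libraries on the first (x axis, 55.2% of variance) and second (y axis, 18.6%) principal components of log2 CPM, with 1 point per library and 1 colour per line and day. The 4 Jurkat libraries sit together at the right, and the 6T-CEM libraries fall into a day 5 pair and a day 10 pair that differ mostly on the second component.

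The same alpha variable and joining segments led in both lines. TRAV8-4, a variable segment of the alpha chain, stood at 22.9, 22.2, 23.8 and 24.4 CPM in Jurkat and 28.8, 25.9, 29.1 and 28.3 CPM in 6T-CEM, in the order of the 2 earlier and the 2 day 10 libraries that holds for every such series below. It was slightly higher in each 6T-CEM library, at a log2 difference (Jurkat minus 6T-CEM) of -0.26 ± 0.072 (SE). TRAJ3, a joining segment of the alpha chain, stood at 1.62, 1.64, 1.45 and 1.55 CPM in Jurkat and 2.18, 1.56, 2.01 and 1.83 CPM in 6T-CEM, and its groups overlapped. In all 16 libraries of the study, TRAV8-4 was the leading TRAV segment, with 62.9% to 81.0% of TRAV counts per kilobase, followed by TRAV18. TRAJ3 was the leading TRAJ segment in all 16, with 69.3% to 91.6%. Among beta segments, TRBV12-3 and TRBV28 held the top places in all 16 libraries, though the counts of TRBV28 are uncertain, as described with TRBC1 below. TRBV12-3 stood at 96.8, 108, 131 and 131 CPM in Jurkat and 17.003, 16.5, 25.9 and 25.6 CPM in 6T-CEM, so that every Jurkat library was higher (log2 2.48 ± 0.054), as was the case at 3404 of 20800 genes (16.4%) against 3660 (17.6%) higher in every 6T-CEM library. The receptor of Jurkat is known to join TRAV8-4 to TRAJ3 and to use TRBV12-3. Beta joining segments (TRBJ) had means under 1 CPM in both lines. The highest, TRBJ2-3 in Jurkat and TRBJ2-4 in 6T-CEM, held 21.4% and 22.2% of the TRBJ level, so none led clearly. Delta chain segments (TRDV, TRDJ and TRDC) had 0 counts in every control library of either line.

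The label presents 6T-CEM as a line of its own, whereas the alpha segments known of Jurkat led in both, and its beta segment TRBV12-3 was measured in both. These segments go against the label in so far as separate T cell clones carry separate receptors. The segments were looked at after values had been seen, and no genotype or read sequence was analysed here, so the origin of the libraries labelled 6T-CEM was not tested. The name 6T-CEM is used below as the label has it. Whether Jurkat RNA was mixed into those libraries was not tested, and levels in 6T-CEM relative to Jurkat differed between genes. TRAV8-4 stood in 6T-CEM at 120.1% of its Jurkat mean, TRAJ3 at 121.2% and TRBV12-3 at 18.2%. DNTT stood at 1.87% and CD2 at 3.09%, and both were picked from the genes with the largest excess in Jurkat. ZNF891, a zinc finger gene, had 44.3, 35.99, 37.03 and 47.8 CPM in Jurkat and 0 CPM in every 6T-CEM library. In bulk RNA, fewer cells with a transcript and less of it per cell cannot be told apart.

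**Figure D2:**
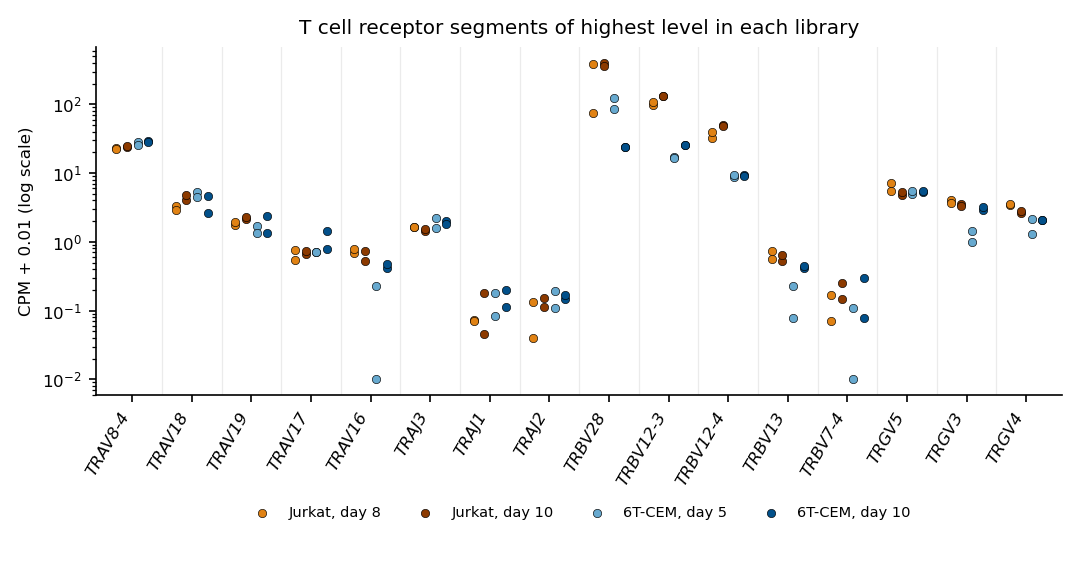
CPM plus 0.01 on a log axis for the T cell receptor segments of highest level among TRAV, TRAJ, TRBV and TRGV, with 1 point per library and the 4 groups side by side for each segment. TRAV8-4 and TRAJ3 lead their classes at close levels in both lines, and the TRBV12 segments are lower in 6T-CEM, with TRBV12-3 at 96.8 to 131 CPM in Jurkat and 16.5 to 25.9 CPM in 6T-CEM.

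A shared gap on chromosome 9 was a further feature of both lines. A run of 21 neighbouring protein-coding genes, from IFNW1 to DMRTA1, had 0 counts in all 16 libraries (chr9:21140214-22455740, build GRCh38, from the reference annotation). Most genes of the run are interferon genes (IFNW1, IFNE and the IFNA genes), so the count of 21 rests mostly on a single gene family. The run also includes CDKN2A and CDKN2B, cell cycle inhibitors often deleted in T-ALL, and MTAP, an enzyme of methylthioadenosine salvage. Before it lies IFNB1, the interferon beta gene, at 0 to 2 counts per control library, and then HACD4, which stood at 21.6, 19.3, 20.999 and 20.4 CPM in Jurkat and 25.7, 27.97, 16.01 and 17.5 CPM in 6T-CEM, and these values overlapped. Whether the genes are deleted was not tested, since expression alone was measured.

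Across the genome, edgeR's quasi-likelihood test with Benjamini-Hochberg adjustment compared the mean of the Jurkat days with the mean of the 6T-CEM days. The words over both times stand below for this comparison of means, which need not hold at each time. The test called 11275 of 20800 genes at an adjusted p under 0.05 (54.2%), 5686 higher in Jurkat (27.3%) and 5589 higher in 6T-CEM (26.9%). A test against a 2-fold difference called 1413 genes (6.79%), 657 higher in Jurkat (3.16%) and 756 higher in 6T-CEM (3.63%). At day 10 alone, 8424 genes were called (40.5%), 4011 higher in Jurkat (19.3%) and 4413 higher in 6T-CEM (21.2%). The 2-fold test called 1011 genes at day 10 (4.86%), 478 in the direction of Jurkat (2.30%) and 533 in that of 6T-CEM (2.56%). The mean over days includes the day 10 libraries, so the counts that follow are a description and no independent check. Of the 1413 genes past the 2-fold test, 1311 (92.8%) were called at day 10 with the same sign, and 11 had the opposite sign. Of all 11275 called genes, 6505 (57.7%) were called with the same sign at day 10 and 291 with the opposite sign. Jurkat day 8 against 6T-CEM day 5 called 11142 genes (53.6%), and those days differ. Of these, 5695 were higher in Jurkat (27.4%) and 5447 in 6T-CEM (26.2%), and the 2-fold test called 1795 (8.63%), 992 (4.77%) and 803 (3.86%) in these directions.

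The difference between the lines itself changed between the sampling times at 7289 genes (35.0%), 3608 toward Jurkat at day 10 (17.3%) and 3681 toward 6T-CEM (17.7%). With the 2-fold test it changed at 505 genes (2.43%), 139 toward Jurkat (0.668%) and 366 toward 6T-CEM (1.76%). Of the 5988 genes called at both times, 4612 had the same sign and 1376 the opposite sign. In the 8 sh-SH2D1A libraries, which enter none of these fits, the same contrast gave the same sign and a call at 8221 of 11108 genes (74.0%), and at 1292 of 1364 genes (94.7%) past the 2-fold test. Those libraries carry another hairpin in the same lines and days.

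**Figure D3:**
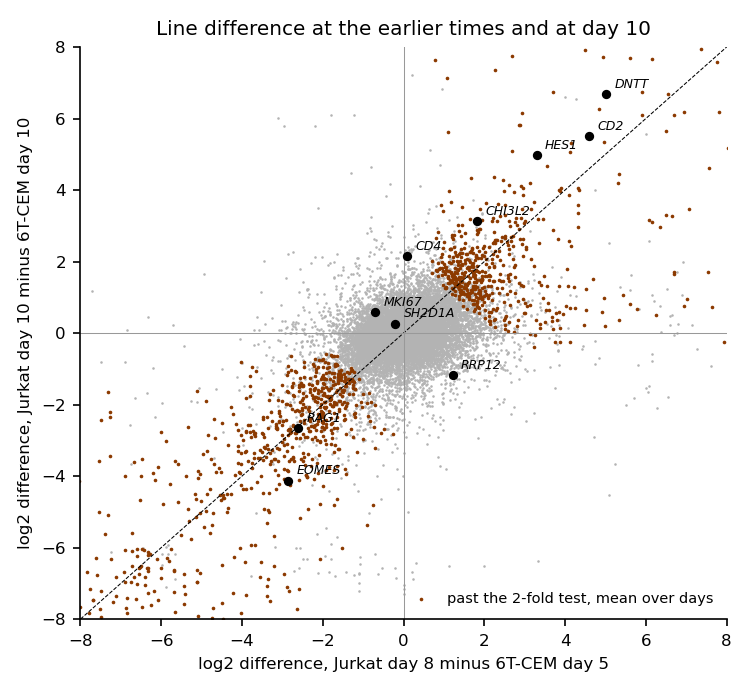
log2 difference between the lines at the earlier times (x axis, Jurkat day 8 minus 6T-CEM day 5) against day 10 (y axis), with 1 point per tested gene that has a symbol and brown points for genes past the 2-fold test for the mean over days. DNTT, CD2, EOMES and RAG1 keep their side at both times, MKI67 and RRP12 change sign, and 74 genes lie outside the axes, which end at 8 in either direction.

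Of the genes in the title of the study, CHI3L2 separated the lines at both times and SH2D1A overlapped between them. CHI3L2, a chitinase-like protein without known chitinase activity, stood at 1147, 1230.1, 1794 and 1839 CPM in Jurkat and 342, 335, 209 and 204 CPM in 6T-CEM. Every Jurkat library was above every 6T-CEM library, at a log2 difference of 2.47 ± 0.042 (SE, adjusted p = 3.71e-11). The gap was 1.81 at the earlier times and 3.14 at day 10, with Jurkat higher and 6T-CEM lower on day 10. SH2D1A, which encodes the adaptor SAP of SLAM receptors, stood at 159, 173, 173 and 202 CPM in Jurkat and 186, 197, 158 and 155 CPM in 6T-CEM. The difference was called in opposite directions at the earlier times, at -0.20 (adjusted p = 0.047), and at day 10, at 0.26 (adjusted p = 0.0209). The mean over both was 0.029 ± 0.055 (adjusted p = 0.685), and the change between times was called (adjusted p = 0.00739). Of the 13 tested SLAM receptors and SAP partners, 4 were higher in Jurkat and 4 in 6T-CEM, near the shares of all tested genes (27.3% and 26.9%). Jurkat was higher in LY9, a SLAM receptor (23.5 to 26.5 against 4.04 to 5.01 CPM, log2 2.56 ± 0.10), in CD48, the ligand of 2B4 (41.5 to 48.2 against 13.7 to 22.7 CPM), and in INPP5D, the lipid phosphatase SHIP1 (68.7 to 127 against 34.6 to 54.4 CPM). In 6T-CEM the SLAM receptors SLAMF7 (0.069 to 0.187 against 0.883 to 1.88 CPM) and SLAMF1 (0.125 to 0.447 against 0.469 to 1.09 CPM) were higher.

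Among the 15 protein-coding genes with the highest log2 difference on the Jurkat side, 6 are described here by their values in each library. DNTT, terminal transferase, stood at 279, 300.2, 390.5 and 389 CPM in Jurkat and 8.45, 9.36, 4.25 and 3.37 CPM in 6T-CEM, a log2 difference of 5.85 ± 0.071 (adjusted p = 8.28e-12). CD2, an adhesion receptor of T cells, stood at 89.1, 96.1, 111 and 111 CPM in Jurkat and 3.86, 3.85, 2.31 and 2.59 CPM in 6T-CEM (log2 5.04 ± 0.07). CD28, the main costimulatory receptor, stood at 177, 177, 187 and 205 CPM in Jurkat and 22.1, 23.8, 12.7 and 14.4 CPM in 6T-CEM (log2 3.40 ± 0.06). For each of these genes the lowest Jurkat library was above the highest 6T-CEM library. CD1E, a lipid-presenting CD1 protein of cortical thymocytes, stood at 441, 474, 605 and 582 CPM in Jurkat and 56.5, 64.6, 33.3 and 35.7 CPM in 6T-CEM. STAT5A, a signal transducer of cytokine receptors, stood at 130.4, 136, 206 and 192 CPM in Jurkat and 11.2, 11.5, 8.36 and 7.35 CPM in 6T-CEM, whereas its close relative STAT5B was not called (128 to 148 against 118 to 166 CPM, ranges over 4 libraries of each line, Jurkat named before 6T-CEM here and below). HES1, a repressor induced by NOTCH, stood at 20.2, 25.1, 32.9 and 30.2 CPM in Jurkat and 2.08, 2.54, 0.884 and 1.103 CPM in 6T-CEM. None of these 3 genes overlapped between the lines, and their log2 differences were 3.51 ± 0.058, 4.11 ± 0.061 and 4.14 ± 0.14.

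The other 9 of these genes were ZNF891, at the top of the order, the matrix genes EFEMP1 (100.05 to 134 against 2.72 to 3.81 CPM) and COL6A2 (12.1 to 17.3 against 0.41 to 3.02 CPM), the homeobox gene SIX6 (154 to 184 against 11.9 to 23.5 CPM), the sodium pump subunit FXYD2 (62.6 to 74.5 against 3.96 to 13.4 CPM), the RNA-binding PCBP3 (24.4 to 37.1 against 1.77 to 3.98 CPM), LITAF (9.12 to 14.2 against 0.29 to 1.09 CPM), the complement receptor CR2 (10.3 to 35.1 against 1.597 to 2.07 CPM) and the transcription factor TOX2 (13.4 to 22.7 against 1.63 to 2.18 CPM). ZNF891 was at least 407-fold higher in Jurkat, against a floor of 3 counts in each 6T-CEM library. It lies in a run of 3 zinc finger genes on chromosome 12 (chr12:133079838-133159465), of which ZNF140 (4.32 to 5.66 against 0 to 0.17 CPM) and ZNF10 (4.07 to 8.28 against 0 CPM) were also at or near 0 in 6T-CEM. The genes on either side, ZNF84 (42.7 to 48.5 against 52.5 to 80.98 CPM) and ZNF268 (10.4 to 11.9 against 16.8 to 21.8 CPM), were both higher in 6T-CEM.

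The 6T-CEM side was led by genes at or near 0 in Jurkat. PTPRG, a receptor tyrosine phosphatase, stood at 0 CPM in every Jurkat library and 29.1, 33.1, 26.1 and 30.05 CPM in 6T-CEM, at least 302-fold higher in 6T-CEM against the floor of 3 counts. KCNQ5, a potassium channel subunit, stood at 0 CPM in every Jurkat library and 10.8, 11.5, 17.8 and 18.4 CPM in 6T-CEM, at least 149.6-fold higher by the same floor. SOSTDC1, a secreted antagonist of BMP and WNT signals, stood at 0, 0.417, 0 and 0 CPM in Jurkat and 131, 139, 81.9 and 82.4 CPM in 6T-CEM. The groups of each gene did not overlap, and the Jurkat level was 0 or close to it. PTPRD, another receptor phosphatase, stood at 0, 0.119, 0.069 and 0 CPM in Jurkat and 21.3, 23.5, 22.2 and 26.96 CPM in 6T-CEM. SVEP1, a large matrix protein, stood at 0.529, 0.357, 0.345 and 0 CPM in Jurkat and 62.04, 64.4, 68.7 and 67.3 CPM in 6T-CEM. NIBAN1, a stress-linked regulator of translation, stood at 0.374, 0.476, 0.586 and 0.457 CPM in Jurkat and 57.2, 62.3, 57.9 and 61.8 CPM in 6T-CEM, a log2 difference of -6.97 ± 0.11 (adjusted p = 3.68e-11). Jurkat held a low but measured level of NIBAN1 in each of its libraries.

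Cancer testis antigens, normally silent outside germ cells, included genes measured in 6T-CEM and at or near 0 in Jurkat. Of 27 listed, 13 passed the filter on low counts, several of them through 6T-CEM only. Of these, 10 were called higher in 6T-CEM, against 26.9% of all tested genes, and this count is in part fixed by the filter. No median is given, since many Jurkat libraries were at 0. MAGEA4 stood at 0, 0.0595, 0 and 0.105 CPM in Jurkat and 24.98, 27.8, 15.6 and 15.8 CPM in 6T-CEM, and MAGEA12 at 0.0623, 0.119, 0.069 and 0 CPM in Jurkat and 19.3, 18.4, 30.1 and 32.002 CPM in 6T-CEM. Counts of MAGEA2, MAGEA2B, MAGEA3, MAGEA6, CSAG2 and CSAG3 are uncertain, since these genes have near-identical copies. PRAME was at 37.97 to 54.98 against 42.6 to 58.3 CPM and was not called (adjusted p = 0.963). GTSF1, a germline factor of the piRNA pathway, stood at 10.03, 9.91, 14.8 and 13.7 CPM in Jurkat and 82.2, 87.9, 81.4 and 75.95 CPM in 6T-CEM, and its groups did not overlap. By position, 7 neighbouring genes of the CSAG and MAGEA cluster on chromosome X (chrX:152708261-152769747) were all past 8-fold higher in 6T-CEM. The run includes the near-identical copies MAGEA2, MAGEA2B, MAGEA6, CSAG2 and CSAG3, so the same reads may be counted more than once. Among 12872 protein-coding genes with at least 1 CPM in some library, 162 were past 8-fold higher in 6T-CEM without overlap and 37 in Jurkat.

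The 15 highest in 6T-CEM also held MAGEA2 (0 to 0.14 against 6.64 to 13.5 CPM) and MAGEA2B (0 to 0.14 against 6.68 to 13.7 CPM). Their counts are uncertain, as stated above, and nearly the same. The remaining genes of the 15 were STAC (0 to 0.105 against 10.9 to 28.5 CPM), SLC22A31 (0 to 0.141 against 10.3 to 24.4 CPM), the monocarboxylate transporter SLC16A9 (0.0934 to 0.276 against 26.8 to 36.8 CPM), MTUS1 (0.138 to 0.457 against 25.5 to 28.4 CPM) and CYP51A1 (0 to 0.311 against 11.5 to 13.4 CPM). CYP51A1 shares 79.4% of its exon bases with a gene on the same strand, so its count is uncertain. Counting genes with at least 5 CPM in every library of one line and at most 3 counts in every library of the other gave 5 genes: ZNF891 in Jurkat, and PTPRG, MAGEA4, STAC and KCNQ5 in 6T-CEM. Of the 30 genes named by size in either direction, all 30 had the same sign and a call in the sh-SH2D1A libraries.

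**Figure D4:**
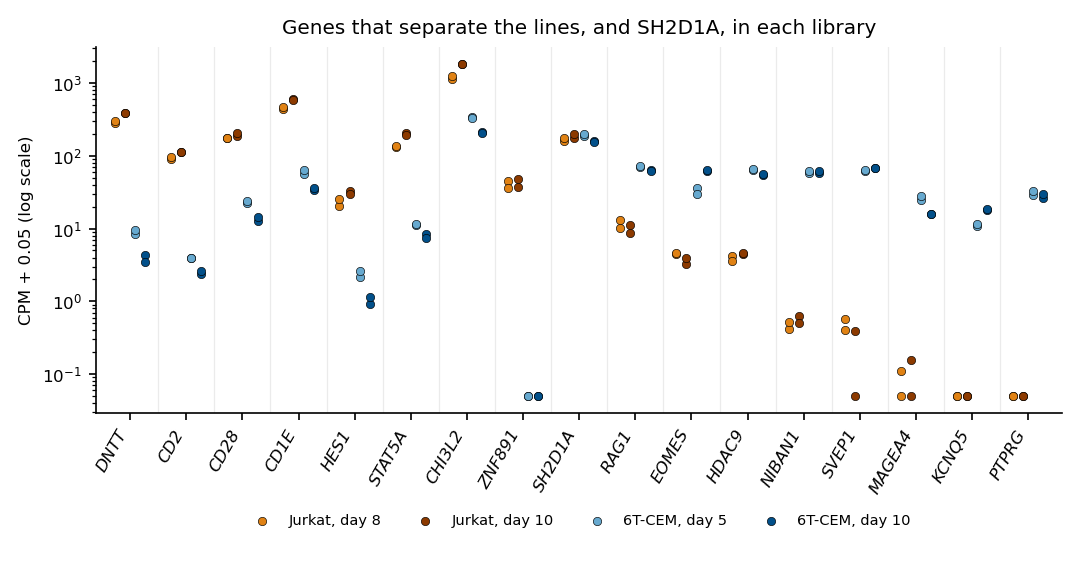
CPM plus 0.05 on a log axis for 17 genes, with 1 point per library and the 4 groups side by side for each gene. The genes from DNTT to ZNF891 are higher in every Jurkat library, SH2D1A overlaps between the lines, and the genes from RAG1 to PTPRG are higher in every 6T-CEM library.

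Promoter sequence was read for the genes at the ends of the comparison. The sequences of DNTT and CD2, more than 8-fold higher in Jurkat, and of PTPRG, KCNQ5 and ZNF891, which had no count in one of the lines, are shown as examples with few and with many CpG among the genes named by size. Each sequence is the 250 bases before the RefSeq gene start (GRCh38.p14), 5′ to 3′ on the strand of the gene, with CpG dinucleotides in capitals.
DNTT: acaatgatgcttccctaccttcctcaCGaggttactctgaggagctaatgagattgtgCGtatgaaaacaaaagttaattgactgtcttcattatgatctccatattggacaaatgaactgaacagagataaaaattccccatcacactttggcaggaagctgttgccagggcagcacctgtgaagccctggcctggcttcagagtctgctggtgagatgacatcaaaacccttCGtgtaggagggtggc
CD2: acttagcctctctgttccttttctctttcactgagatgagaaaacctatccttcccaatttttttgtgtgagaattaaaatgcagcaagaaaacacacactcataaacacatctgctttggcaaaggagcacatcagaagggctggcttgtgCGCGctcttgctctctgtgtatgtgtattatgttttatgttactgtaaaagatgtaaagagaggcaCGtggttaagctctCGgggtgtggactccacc
PTPRG: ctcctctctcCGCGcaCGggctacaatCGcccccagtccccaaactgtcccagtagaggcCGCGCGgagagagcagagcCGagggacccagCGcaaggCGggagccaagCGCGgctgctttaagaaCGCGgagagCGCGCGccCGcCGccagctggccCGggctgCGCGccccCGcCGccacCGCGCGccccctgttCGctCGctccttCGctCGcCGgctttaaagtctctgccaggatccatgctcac
KCNQ5: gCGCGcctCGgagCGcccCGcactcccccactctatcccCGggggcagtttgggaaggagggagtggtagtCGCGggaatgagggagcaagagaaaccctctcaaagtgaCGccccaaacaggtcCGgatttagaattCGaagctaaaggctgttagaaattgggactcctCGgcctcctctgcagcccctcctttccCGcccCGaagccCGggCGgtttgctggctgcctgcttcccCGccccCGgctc
ZNF891: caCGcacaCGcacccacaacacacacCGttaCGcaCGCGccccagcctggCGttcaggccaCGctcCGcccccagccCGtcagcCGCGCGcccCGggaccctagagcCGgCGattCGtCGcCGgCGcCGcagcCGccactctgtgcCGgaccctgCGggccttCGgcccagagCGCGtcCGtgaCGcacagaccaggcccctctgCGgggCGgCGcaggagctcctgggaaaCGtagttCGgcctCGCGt
The windows lie at chr10:96304184-96304433 on the plus strand, chr1:116754180-116754429 on the plus strand, chr3:61561321-61561570 on the plus strand, chr6:72621814-72622063 on the plus strand and chr12:133130275-133130524 on the minus strand. DNTT holds 3 CpG and CD2 holds 4, at 0.223 and 0.349 of the number expected from the base composition. PTPRG holds 32, KCNQ5 18 and ZNF891 36, at 1.04, 0.707 and 1.09 of the expected number. Windows with at least 0.6 of the expected CpG and 50% G or C were counted as CpG-rich, over the 8811 tested genes with a single RefSeq promoter. They made up 75.5% of those genes, 61.0% of the 246 genes past the 2-fold test higher in Jurkat and 62.5% of the 328 higher in 6T-CEM. Among genes at least 8-fold apart with no overlap, 48.1% of 27 higher in Jurkat and 63.6% of 88 higher in 6T-CEM were CpG-rich. Methylation was not measured, and these shares are a description.

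T cell identity genes were present in both lines and mostly higher in Jurkat. Of 16 T cell markers, 12 were higher in Jurkat and 2 in 6T-CEM, with a median log2 difference of 1.13 against 0.0012 over all tested genes. The shares of all tested genes called in those directions were 27.3% and 26.9%. Among tested genes with a mean of at least 5 CPM these shares were 35.0% and 32.7%. List counts here and below are over members that passed the filter on low counts, which a gene can pass through 1 line alone. At day 10 the counts were 11 and 1, with a median of 0.72. Fewer of all tested genes were called at day 10, with shares of 19.3% and 21.2% and a median of -0.025. Day 10 list counts below are to be read beside these shares. Of 10 tested receptor and CD3 chains, 6 were higher in Jurkat and 3 in 6T-CEM. CD3E (425 to 538 against 384 to 395 CPM) and CD3D (263 to 345 against 111 to 201 CPM), chains of the surface complex, were higher in Jurkat, and CD3G (162 to 186 against 143 to 173 CPM) was not called. TRAC, the alpha constant gene, went the other way in the mean over both times, at 51.3 to 68.5 against 64.1 to 87.7 CPM. Its log2 difference was -0.62 at the earlier times and 0.061, not called, at day 10. TRBV28 and TRBC1, the beta constant gene, moved against each other between libraries of one group, at 74.8 and 382 CPM for TRBV28 and 387 and 145 CPM for TRBC1 in the day 8 Jurkat pair. Their sum was steadier, at 462 to 592 CPM in Jurkat and 127 to 140.3 CPM in 6T-CEM, so that neither gene is read alone. PTCRA, the invariant pre-receptor chain, was at 14.1 to 28.96 against 2.104 to 5.27 CPM (log2 2.62 ± 0.15).

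Of 22 tested surface receptors, 11 were higher in Jurkat and 4 in 6T-CEM, with a median of 0.78, and at day 10 the counts were 12 and 3. CD5, a damper of receptor signals, stood at 107, 121, 146 and 136 CPM in Jurkat and 40.2, 37.4, 30.01 and 31.1 CPM in 6T-CEM. CD7, an early T lineage antigen, stood at 57.6, 63.1, 66.6 and 53.04 CPM in Jurkat and 18.8, 15.6, 16.8 and 16.1 CPM in 6T-CEM. CD69, an early activation antigen, stood at 33.1, 39.6, 41.2 and 40.04 CPM in Jurkat and 20.3, 21.3, 6.798 and 5.96 CPM in 6T-CEM, with the lowest values in 6T-CEM on day 10. No library of one line overlapped the other for these 3 receptors. CD4 did overlap, at 25.5, 21.1, 30.5 and 25.5 CPM in Jurkat and 23.5, 20.2, 6.46 and 6.15 CPM in 6T-CEM, since only the day 10 libraries of 6T-CEM were low. Members higher in 6T-CEM were CD96 (28.6 to 36.2 against 49.5 to 85.3 CPM), CD8A (0.517 to 1.21 against 2.29 to 3.05 CPM) and CD8B (0.246 to 0.436 against 0.402 to 1.43 CPM). PTPRC, which encodes CD45, was higher in 6T-CEM in the mean over both times but higher in Jurkat at day 10. It stood at 378, 384, 422 and 469 CPM in Jurkat and 549, 596, 396 and 374 CPM in 6T-CEM.

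Receptor signalling genes were more often higher in Jurkat. Of 37 kinases and adaptors, 19 were higher in Jurkat and 10 in 6T-CEM, with a median of 0.19, and 17 and 8 at day 10. LCK, the kinase that starts the signal, stood at 689, 766, 862 and 833 CPM in Jurkat and 379, 343, 449.7 and 452 CPM in 6T-CEM. ZAP70, the kinase that binds the phosphorylated CD3 chains, stood at 702, 674, 723 and 654 CPM in Jurkat and 244, 211, 257 and 263 CPM in 6T-CEM. GRAP2, an adaptor that joins SLP-76 to LAT, was at 102 to 122 against 35.9 to 50.2 CPM. All 3 were higher in every Jurkat library, at log2 differences of 0.96 ± 0.049, 1.501 ± 0.055 and 1.34 ± 0.071. LAT itself was at 152 to 175 against 46.98 to 58.1 CPM, with 47.7% of its exon bases shared with another gene on its strand. PLCG1 (266 to 311 against 282 to 307 CPM) and LCP2, which encodes SLP-76 (79.3 to 87.1 against 76.96 to 90.5 CPM), were not called. Higher in 6T-CEM were PIK3R1, a regulatory subunit of PI 3-kinase (70.1 to 89.2 against 160.0 to 205 CPM), MALT1 (24.5 to 31.9 against 41.2 to 75.2 CPM), CBLB (25.9 to 32.3 against 34.2 to 66.5 CPM) and SYK (96.7 to 108 against 135 to 168 CPM).

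Stage genes were divided between the lines. Of 25 thymocyte stage genes, 14 were higher in Jurkat and 8 in 6T-CEM, with a median of 0.37 over both times and 0.64 at day 10. All of CD1A (159 to 175 against 23.2 to 32.3 CPM), CD1B (63.4 to 79.2 against 22.6 to 37.5 CPM), CD1C (51.7 to 57.5 against 5.52 to 7.08 CPM), CD1D (117 to 141 against 25.1 to 38.2 CPM) and CD1E were higher in Jurkat, as was DNTT. RAG1, the catalytic recombinase subunit, stood the other way at 10.3, 12.98, 8.76 and 11.03 CPM in Jurkat and 70.6, 72.3, 63.2 and 60.98 CPM in 6T-CEM. Its log2 difference was -2.63 ± 0.093 (adjusted p = 5.34e-09), without overlap. RAG2 followed at 8.69 to 11.5 against 12.4 to 19.96 CPM (log2 -0.60 ± 0.10). IGLL1, a surrogate light chain gene, stood at 55.1, 59.001, 76.7 and 66.04 CPM in Jurkat and 135, 128, 142 and 145 CPM in 6T-CEM, and ELOVL4, a fatty acid elongase, at 45.9 to 55.5 against 138 to 235 CPM. CXCR4 (265 to 287 against 205 to 345 CPM) and CD38 (47.1 to 72.3 against 34.6 to 103 CPM) were not called over both times, but were called higher in Jurkat at day 10.

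NOTCH1 and NOTCH3 were higher in Jurkat, and the measured targets were divided. Of 20 receptors and targets tested, 10 were higher in Jurkat and 7 in 6T-CEM, with a median of 0.30. NOTCH1, the receptor most often mutated in T-ALL, stood at 281, 245, 410.2 and 378 CPM in Jurkat and 176, 180.2, 204 and 206 CPM in 6T-CEM. NOTCH3, which is itself a NOTCH target in T-ALL, stood at 224, 190.1, 282 and 263 CPM in Jurkat and 110.4, 95.5, 45.1 and 48.5 CPM in 6T-CEM. DTX1, an E3 ligase induced by NOTCH, stood at 151, 154, 282 and 259.6 CPM in Jurkat and 29.5, 24.2, 38.3 and 43.5 CPM in 6T-CEM (log2 2.62 ± 0.07). These 3 genes did not overlap between lines, and HES4 (147 to 253 against 50.7 to 69.7 CPM) was also higher in Jurkat. Against this, NOTCH2 (70.7 to 89.5 against 125 to 156 CPM), the ligand JAG1 (1.23 to 2.93 against 6.54 to 8.95 CPM), the feedback inhibitor NRARP (0.862 to 1.34 against 1.02 to 3.44 CPM, a call lost with DESeq2) and FBXW7, which degrades active NOTCH (41.9 to 52.9 against 60.7 to 77.8 CPM), were higher in 6T-CEM. MYC, a NOTCH target in T-ALL, was at 183 to 214 against 146 to 334 CPM with a log2 difference of -0.17 ± 0.043, from 0.49 at the earlier times to -0.82 at day 10.

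Transcription factors of the T lineage were more often higher in 6T-CEM. Of 34 tested, 9 were higher in Jurkat and 18 in 6T-CEM, with a median of -0.38, and at day 10 the counts were 10 and 13 with a median of -0.042. EOMES, a T-box factor of effector lymphocytes, stood at 4.45, 4.495, 3.24 and 3.93 CPM in Jurkat and 35.6, 29.3, 61.5 and 64.03 CPM in 6T-CEM. SATB1, a chromatin organizer of thymocytes, stood at 204, 196, 197 and 207 CPM in Jurkat and 535, 576, 503 and 530.0 CPM in 6T-CEM. Both were higher in every 6T-CEM library, with log2 differences of -3.49 ± 0.10 and -1.42 ± 0.045. IKZF3, or Aiolos (3.21 to 6.38 against 19.4 to 27.3 CPM), FOXO1 (3.69 to 5.03 against 13.5 to 27.2 CPM), KLF2 (10.1 to 13.2 against 26.6 to 34.6 CPM) and BCL11B (177 to 195 against 264 to 303 CPM) were higher in 6T-CEM as well. RUNX2 (49.6 to 56.996 against 12.1 to 20.8 CPM) and RUNX3 (35.7 to 41.6 against 15.6 to 19.01 CPM) were higher in Jurkat and RUNX1 (619 to 648 against 784 to 944 CPM) in 6T-CEM. GATA3 (94.8 to 139 against 109.7 to 139 CPM) and SOX4 (876 to 1238 against 1006 to 1069 CPM) were not called over both times.

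Among oncogenic factors of T-ALL, TAL1 was measured well above the floor in both lines. TAL1, a helix-loop-helix factor switched on in many cases, stood at 309, 308, 316 and 316 CPM in Jurkat and 234, 236, 218 and 221 CPM in 6T-CEM. It was higher in every Jurkat library, by a log2 difference of 0.46 ± 0.037. Of 19 tested factors, 7 were higher in Jurkat and 9 in 6T-CEM, and 5 and 8 at day 10. The homeobox gene NKX2-5 stood at 1.03, 0.923, 0.69 and 0.808 CPM in Jurkat and 7.51, 7.73, 7.27 and 8.89 CPM in 6T-CEM, and LYL1 at 1.99, 1.85, 2.93 and 3.16 CPM in Jurkat and 9.73, 5.19, 10.9 and 9.27 CPM in 6T-CEM, both without overlap. CCND2, a D-type cyclin, was higher in 6T-CEM (0.457 to 1.37 against 3.12 to 9.71 CPM), and CCND3, the cyclin used by many thymocytes, was higher in Jurkat (599 to 848 against 306 to 373 CPM, log2 1.06 ± 0.062). Among 23 tested tumour suppressors, 4 were higher in Jurkat and 12 in 6T-CEM, the latter including RB1 (224 to 265 against 292 to 606 CPM), with a median of -0.19. At day 10 the counts were 5 and 6 and the median was 0.074. These counts are near the day 10 shares of all tested genes (19.3% and 21.2%).

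Of 31 cytokine receptor and JAK-STAT genes, 12 were higher in Jurkat, among them IL7R (10.6 to 11.7 against 3.37 to 4.96 CPM), IL4R (25.2 to 31.2 against 8.16 to 15.7 CPM) and IL9R (30.2 to 33.9 against 6.46 to 10.1 CPM), and 7 in 6T-CEM, among them TGFBR1 (39.3 to 45.8 against 77.6 to 143 CPM). The median was 0.10, and the shares of all tested genes were 27.3% and 26.9%. They were 35.0% and 32.7% among genes with a mean of at least 5 CPM. Of 33 homing and adhesion receptors, 14 were higher in Jurkat and 8 in 6T-CEM, and at day 10 the counts were 16 and 6. ITGAL, the alpha chain of LFA-1, stood at 255, 244, 313 and 302 CPM in Jurkat and 143, 132, 78.1 and 81.3 CPM in 6T-CEM. It was higher in every Jurkat library, as was ITGA4 (821 to 989 against 301 to 555 CPM). Of 17 class I and peptide loading genes, 12 were higher in Jurkat and 1, the chaperone CALR (599 to 648 against 699 to 1347 CPM), in 6T-CEM, with a median of 0.51. B2M, the light chain of class I molecules, overlapped at 339, 366, 415 and 439 CPM in Jurkat and 345, 364, 216 and 201 CPM in 6T-CEM. HLA genes are polymorphic and resemble each other, so the authors' counts may split their reads.

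Interferon response genes were called higher in Jurkat for 23 of 47 tested and higher in 6T-CEM for 10, with a median of 0.41. IRF1 (109 to 142 against 42.9 to 48.1 CPM), IFI16, a DNA sensor (315 to 371 against 156 to 199 CPM), BST2 (30.5 to 39.6 against 10.3 to 12.9 CPM) and OAS2 (28.1 to 34.7 against 13.6 to 17.003 CPM) were among the former. HERC5 (54.9 to 57.04 against 65.6 to 95.8 CPM) and EPSTI1 (3.99 to 4.896 against 11.1 to 12.03 CPM) were among the latter. Of 28 tested ERK and immediate early targets, 15 were higher in Jurkat and 5 in 6T-CEM, with a median of 0.70. EGR1, the most used reporter of receptor signals, stood at 66.4, 64.1, 65.96 and 68.2 CPM in Jurkat and 17.4, 14.2, 5.06 and 5.68 CPM in 6T-CEM. Its log2 difference was 2.84 ± 0.082 (adjusted p = 1.27e-09), without overlap. IER2 (170.2 to 235 against 74.1 to 81.6 CPM), DUSP2 (42.97 to 55.1 against 12.7 to 21.1 CPM) and SPRED2 (81.9 to 89.4 against 26.7 to 36.7 CPM) were higher in Jurkat, and SPRY2 (10.9 to 11.8 against 18.6 to 22.5 CPM) in 6T-CEM. JUN was higher in 6T-CEM over both times (10.7 to 15.3 against 17.9 to 44.03 CPM) and not called at day 10.

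NF-kB targets were split, with 12 of 23 higher in Jurkat and 6 in 6T-CEM, and 6 and 5 at day 10. CD40LG, the ligand that T cells show to B cells, stood at 18.3, 19.4, 21.4 and 21.3 CPM in Jurkat and 7.78, 9.07, 1.6995 and 1.64 CPM in 6T-CEM. IL32 was at 264 to 382 against 132 to 175 CPM and the feedback inhibitor TNFAIP3 at 127 to 151 against 57.7 to 96.4 CPM, both higher in Jurkat. TNFAIP2 stood at 0.872, 1.19, 1.97 and 0.984 CPM in Jurkat and 41.7, 33.2, 31.6 and 35.5 CPM in 6T-CEM, and ICAM1 was at 4.52 to 7.94 against 13.4 to 16.96 CPM, both higher in 6T-CEM. The subunit genes RELA (82.9 to 100.5 against 84.5 to 111 CPM) and NFKB1 (61.7 to 70.8 against 45.6 to 73.4 CPM) differed by -0.08 ± 0.059 and 0.20 ± 0.057 on the log2 scale, of which the latter was called. Among the annexins, ANXA1 stood at 64.6, 65.1, 88.2 and 95.4 CPM in Jurkat and 7.75, 11.2, 9.69 and 10.2 CPM in 6T-CEM and was higher in Jurkat, whereas ANXA2 (44.4 to 51.98 against 82.3 to 100.4 CPM) and ANXA5 (16.4 to 21.7 against 46.5 to 50.8 CPM) were higher in 6T-CEM. HDAC9, a class II histone deacetylase, stood at 4.17, 3.51, 4.38 and 4.601 CPM in Jurkat and 64.3, 66.7, 54.99 and 55.6 CPM in 6T-CEM, without overlap.

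Sterol and lipid synthesis was the list with the highest share called higher in Jurkat among lists of at least 10 tested genes. Of 30 tested genes, 27 were higher in Jurkat and 2 in 6T-CEM, with a median of 0.79, and at day 10 the counts were 23 and 1, with a median of 0.64. SREBF2, the regulator of the pathway, stood at 598, 575, 607 and 581 CPM in Jurkat and 165, 158, 176 and 187 CPM in 6T-CEM. HMGCS1, an early enzyme, stood at 529, 557, 334 and 389 CPM in Jurkat and 148, 159.9, 109 and 107 CPM in 6T-CEM. FDPS, which makes farnesyl diphosphate, stood at 507, 524, 419.8 and 399.9 CPM in Jurkat and 138, 131, 168 and 173 CPM in 6T-CEM. For SREBF2, HMGCS1 and FDPS each Jurkat library was above each 6T-CEM library, at log2 differences of 1.79 ± 0.043, 1.78 ± 0.056 and 1.60 ± 0.042. The summed level of the list was 7865 to 8918 CPM in Jurkat and 4544 to 5068 CPM in 6T-CEM. The 2 members higher in 6T-CEM were SC5D (30.6 to 34.2 against 32.3 to 53.5 CPM), not called at day 10, and CYP51A1, whose count is uncertain as stated above.

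Other metabolic lists were mixed. Of 24 tested purine and nucleoside genes, 11 were higher in Jurkat and 5 in 6T-CEM, but at day 10 the counts were 8 and 11. ADA, adenosine deaminase, stood at 891, 961, 965 and 922 CPM in Jurkat and 390.2, 371, 392 and 372 CPM in 6T-CEM. NT5E, the surface enzyme CD73 that makes adenosine, stood at 1.96, 1.82, 1.86 and 2.28 CPM in Jurkat and 9.32, 10.4, 14.5 and 16.6 CPM in 6T-CEM. They pointed in opposite directions and neither overlapped. HPRT1, the purine salvage enzyme that activates thiopurines, was at 66.3 to 85.05 against 59.1 to 81.8 CPM and was not called (adjusted p = 0.196). Of 35 glycolysis and hypoxia genes, 16 were higher in Jurkat and 12 in 6T-CEM over both times, with a median of -0.0094. At day 10 the counts were 15 and 8 and the median was 0.15. VEGFA (59.3 to 68.7 against 14.4 to 25.02 CPM) and ALDOC (80.2 to 211 against 19.9 to 91.7 CPM) were higher in Jurkat, and CA9 (0.211 to 0.529 against 2.01 to 14.3 CPM) and PGK1 (619 to 1295 against 819 to 1593 CPM) in 6T-CEM. ASNS, asparagine synthetase, was at 42.5 to 72.4 against 11.6 to 24.9 CPM (log2 1.71 ± 0.076), higher in Jurkat.

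Cell cycle genes divided by phase, and the mitotic part depended on the day. Of 39 S phase genes, 28 were higher in Jurkat and 3 in 6T-CEM, with a median of 0.39, and at day 10 the counts were 26 and 1. CDT1, a licensing factor of replication origins, stood at 239, 248, 299.8 and 264 CPM in Jurkat and 144, 139.6, 132 and 141 CPM in 6T-CEM, without overlap (log2 0.92 ± 0.051). Of 34 G2/M genes, 3 were higher in Jurkat and 22 in 6T-CEM, with a median of -0.34. At day 10 the counts were 11 and 10 and the median was -0.0078, with a change of sign to 0.0051 under size factors and 0.0031 under upper-quartile scaling. PLK1, a mitotic kinase, was higher in 6T-CEM at either time, at 66.7, 77.5, 85.9 and 79.9 CPM in Jurkat and 169, 157, 164 and 154 CPM in 6T-CEM. MKI67, a proliferation marker, changed sign between times, at 896, 737, 1475 and 1510.0 CPM in Jurkat and 1299.5, 1355, 978 and 1013 CPM in 6T-CEM.

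At ribosome assembly genes, many of them MYC targets, the difference between the lines depended on the day. Over both times 10 of 31 were higher in Jurkat and 14 in 6T-CEM, with a median of -0.069. At day 10, 27 were higher in 6T-CEM and 1 in Jurkat, with a median of -0.68. RRP12 stood at 63.4, 58.2, 42.9 and 36.4 CPM in Jurkat and 29.8, 22.5, 90.3 and 88.9 CPM in 6T-CEM, and MRTO4 at 40.7, 41.6, 26.96 and 23.7 CPM in Jurkat and 25.5, 26.2, 73.8 and 68.98 CPM in 6T-CEM. For both genes Jurkat was above 6T-CEM at the earlier times and below it at day 10. The libraries of 6T-CEM day 10 held the highest values. The genes of highest CPM among those called at both times with opposite signs included HSP90AB1, HSPA8, YBX1 and ACTB, which were higher in Jurkat earlier and in 6T-CEM at day 10. HSPA8, a constitutive chaperone, stood at 765, 799, 788 and 806 CPM in Jurkat and 578, 605, 1305 and 1308 CPM in 6T-CEM. ACTB, often used as a reference gene, stood at 4114, 4390.0, 3209 and 3016 CPM in Jurkat and 2990.1, 2958, 4132 and 4158 CPM in 6T-CEM. MT-ATP8 had the same pattern, but it overlaps MT-ATP6. In the other direction, MKI67, DDX17, SOX4, CBX5 and GRK3 were higher in 6T-CEM earlier and in Jurkat at day 10.

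Mitochondrially encoded genes were higher in 6T-CEM. Of 13, 12 were higher in 6T-CEM and none in Jurkat, with a median of -0.65 over both times and -0.60 at day 10. Their summed level was 34136 to 40299 CPM in Jurkat and 53258 to 66290 CPM in 6T-CEM. MT-ND4, a subunit of complex I, stood at 4449, 5010.2, 4419.7 and 4954 CPM in Jurkat and 10212, 10694, 6979 and 6899 CPM in 6T-CEM, with every 6T-CEM library above every Jurkat library. MT-CO1 was at 9925, 10920, 11886 and 12823 CPM in Jurkat and 18472, 18990, 12142 and 12091 CPM in 6T-CEM, so that its day 10 values did not separate the lines (adjusted p = 0.745).

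**Figure D5:**
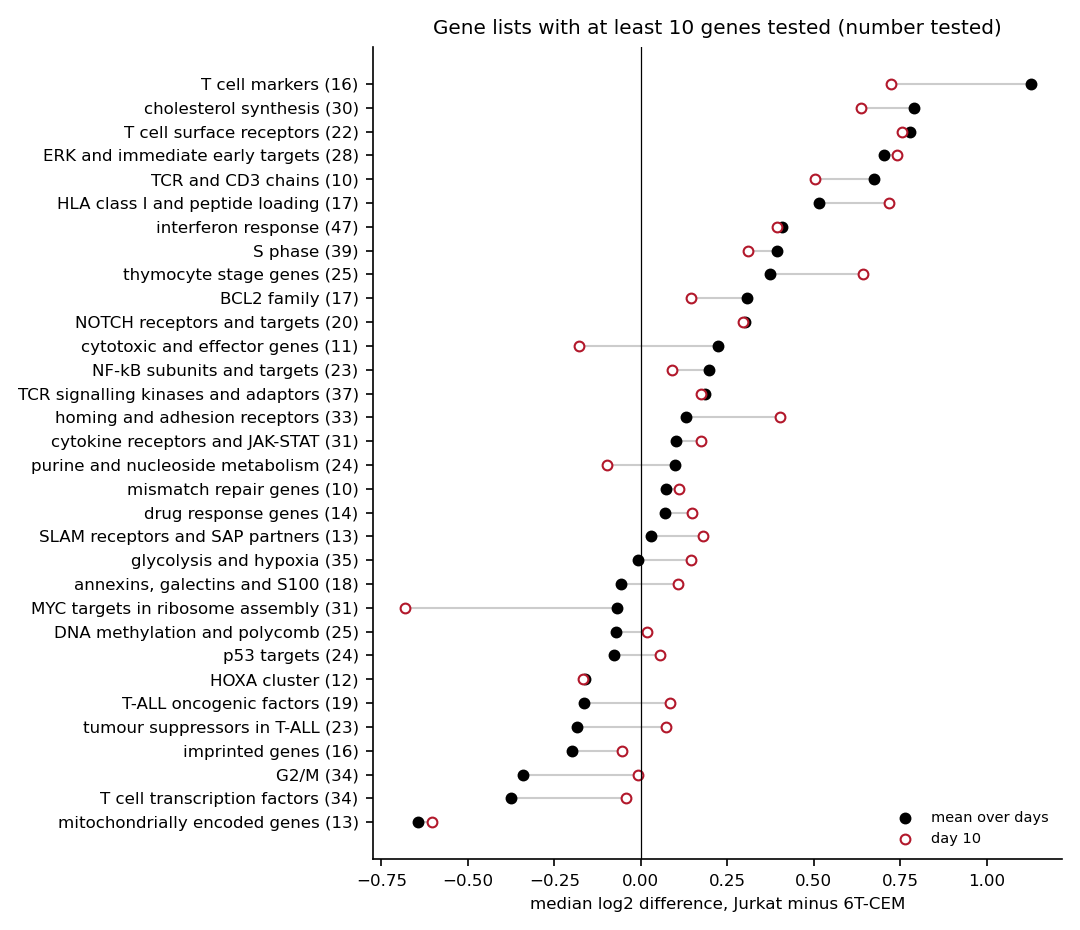
Median log2 difference, Jurkat minus 6T-CEM, for 32 gene lists with at least 10 genes tested (number in brackets), as filled points for the mean over days and open points for day 10. T cell markers, sterol synthesis and surface receptors lie on the Jurkat side at both readings, mitochondrially encoded genes lie on the 6T-CEM side, and ribosome assembly moves from -0.069 to -0.68; cancer testis antigens, whose Jurkat levels are near 0, are left out.

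Most markers of other cell types were under 1 CPM in both lines. Of 12 B cell markers, 8 stayed under 1 CPM in every control library and MS4A1 and PAX5 were among them. CD79A, an adaptor of the B cell receptor that some T-ALL cells express, was at 46.2 to 72.995 against 21.5 to 42.5 CPM. Their summed levels were 70.1 to 99.9 CPM in Jurkat and 46.9 to 68.2 CPM in 6T-CEM. Of 14 myeloid markers, 11 stayed under 1 CPM, and the summed 60.1 to 102 CPM in Jurkat and 47.8 to 67.3 CPM in 6T-CEM include the granulocyte factors CEBPE (50.01 to 88.4 against 35.3 to 42.4 CPM) and CEBPA (7.88 to 10.4 against 9.87 to 23.1 CPM). Of 12 NK cell markers 10 stayed under 1 CPM, and NCAM1, also called CD56, stood at 0.125, 0.179, 0.172 and 0.141 CPM in Jurkat and 7.41, 6.82, 8.09 and 8.13 CPM in 6T-CEM. The erythroid and megakaryocyte list summed to 16.3 to 24.6 CPM in Jurkat and 22.2 to 31.8 CPM in 6T-CEM, the epithelial and packaging cell list to 33.4 to 37.1 CPM in Jurkat and 40.9 to 57.3 CPM in 6T-CEM, and the fibroblast list to 48.7 to 56.2 CPM in Jurkat and 45.8 to 73.1 CPM in 6T-CEM. CD3D, CD3E and CD3G, which define T cells, were measured in every library, at the levels given above.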

How the data were processed

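Each value is a read count per gene from total RNA libraries of the TruSeq kit. The counts were deposited by the authors as 4 tables, 1 for each line and day, and were joined here by Ensembl identifier (64252 genes). HISAT2 2.2.0, StringTie and build hg38 are named per the submitters' processing notes; no source used here gives the counter, annotation release or strand setting, so overlapping genes, near-identical copies and antisense partners cannot be told apart. Symbols and positions came from GENCODE 29, RefSeq and a gene name table.

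Libraries were grouped by the line, day and hairpin of their titles. Genes passed edgeR's filterByExpr (minimum count 10), which left 20800. Counts were scaled by TMM and fitted with edgeR's quasi-likelihood model over 4 groups of 2 libraries (4 residual degrees of freedom). The contrasts were the mean over days, day 10, the earlier days and the difference between times, with Benjamini-Hochberg adjustment over all tested genes at 0.05 and glmTreat against 2-fold. Levels in CPM use total counts scaled by the TMM factors. The SE of a log2 difference is its size divided by the square root of F. Depth was 27942231 to 33788024 counts per library, and a floor of 3 counts covers counting error only.

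On simulated counts for the mean over days (19498 genes), 61% of 100 genes changed 1.5-fold and 90% of 100 changed 2-fold were recovered, with 8 false calls. The changed genes were drawn from above the lowest levels, and no change between days was simulated. These figures hold for that setting only. Alternatives were DESeq2, other scalings and filters, a replicate block, other library sets and each library left out. Those for the earlier times, a 2-fold threshold on the difference between times, list scalings and 2 promoter gene sets were added after seeing the data. R 4.3.3, edgeR 4.0.16, limma 3.58.1 and DESeq2 1.42.0 were used.

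The comparison and the 41 gene lists were chosen with earlier results of these data known. Named genes were the title genes, the 15 highest in each direction by log2 difference among protein-coding genes called over both times and at day 10 with at least 10 CPM in the higher line and no overlap, genes at or under 3 counts in one line, members of the lists with preference to large called differences and to high levels not called, and the 5 of highest level in each direction with opposite called signs at the sampling times. Receptor segments, neighbours of gene runs and HACD4 were chosen after their values were seen. The sh-SH2D1A libraries enter only the receptor and chromosome 9 checks, the stated repeat and the alternatives with other library sets. Some results are not reported here.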

Additional observations from a re-analysis of the deposited data

Results flagged for a closer look

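For 15 genes of the text, the difference between the lines at day 10 departed from that at the earlier times by a test against 2-fold (edgeR, adjusted over all 20800 genes), where 2.43% of genes passed. Since the earlier days differ between the lines, day and line cannot be told apart in these values, and the cause was not tested. Each value below is the day 10 log2 difference (Jurkat minus 6T-CEM) minus the earlier one.

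The day 10 difference lay further on the Jurkat side at 11 genes. Over all tested genes the larger share lay the other way, with 139 toward Jurkat (0.668%) and 366 toward 6T-CEM (1.76%). The genes of the text were picked, so their split does not describe all genes. CD40LG moved by 2.51 (from 1.17 to 3.68), CD4 by 2.06 (from 0.092 to 2.15) and CD69 by 1.87 (from 0.80 to 2.67). CD38 moved by 1.99, from -1.02 to 0.97, and so changed sides. For these 4 T cell surface genes the 6T-CEM mean was lower on day 10 than on day 5, for CD38 at 35.7 against 100.6 CPM and for CD4 at 6.30 against 21.8 CPM. CR2 moved by 1.80 (from 2.47 to 4.27), DNTT by 1.65 (from 5.02 to 6.68), EGR1 by 1.60 (from 2.04 to 3.64), NOTCH3 by 1.53 (from 1.01 to 2.54) and CHI3L2 by 1.32 (from 1.81 to 3.14). JUN moved by 1.62 (from -1.87 to -0.24) and BNIP3L by 1.33 (from -1.19 to 0.15), so that their 6T-CEM excess of the earlier times was not called at day 10.

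The other 4 genes moved toward 6T-CEM. RRP12 moved by -2.39 (from 1.21 to -1.18), MRTO4 by -2.17 (from 0.67 to -1.49) and MYC by -1.31 (from 0.49 to -0.82), each changing sides. FXYD2 moved by -1.70 (from 4.14 to 2.45) and stayed on the Jurkat side.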

How the results depend on the processing

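A threshold of 2-fold lowered the counts of called genes, from 11275 to 1413 for the mean over days, from 8424 to 1011 at day 10, from 11142 to 1795 at the earlier times and from 7289 to 505 for the difference between times. Of the 505, 27.5% lay toward Jurkat, against 49.5% of the 7289. With the days of a line pooled as replicates, 5932 genes were called for the mean. A minimum of 1 CPM in place of 5 CPM gave 29 genes measured in one line alone in place of 5. The share of CpG-rich promoters on the Jurkat side was 48.15% at 8-fold in place of 60.98%. Other scalings, tests, filters and library sets left every count within 1.5 times. Without 1 library, the counts ran from 9722 to 11196 for the mean, from 5774 to 8935 at day 10, from 9082 to 11100 at the earlier times and from 5552 to 7342 for the difference between times; the lone library left in a group is then assumed to vary like the others.

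The replicate numbers are shared only as numbers, with correlations of same-numbered deviations between -0.0168 and 0.0492. A fit with a replicate block called 11177, 8372, 10985 and 7251 genes in the same order.

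Of 195 named genes followed under 15 alternatives each, 11 gained or lost a call and no call was reversed. DDX17, YBX1, MT-ATP8, MYC, NFKB1, NRARP, PTPRC and TRAV8-4 lost theirs under 1 or more of them, PTPRC, NFKB1 and TRAV8-4 without the first day 10 library of 6T-CEM. MKI67, CD3G and HPRT1 gained one, CD3G also with the replicate block. Under size factor and upper-quartile scaling the list medians kept their sign, except that of G2/M genes at day 10, which went from -0.0078 to 0.0051 and 0.0031; the median of all genes was -0.0035 with size factors. Low counts limit the genes near 0 CPM.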

Other observations

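Over both times, apoptosis genes of the BCL2 family were more often higher in Jurkat. Of 17 tested, 9 were higher in Jurkat and 2 in 6T-CEM, with a median log2 difference of 0.31. The shares of all tested genes called in those directions were 27.3% and 26.9%, and 19.3% and 21.2% at day 10. At day 10 the counts were 7 and 2, with a median of 0.15. Of the genes called over both times, 4 in Jurkat and 1 in 6T-CEM kept their call and side at day 10. PMAIP1, the BH3-only protein NOXA, stood at 60.5, 65.8, 74.4 and 76.6 CPM in Jurkat and 29.3, 40.3, 32.1 and 33.1 CPM in 6T-CEM. BAX, an effector of outer membrane permeability, was also higher in Jurkat (60.4 to 77.5 against 25.7 to 54.5 CPM). BNIP3L, a mitophagy receptor, was higher in 6T-CEM over both times (135 to 185 against 123 to 416 CPM) but not called at day 10. MCL1 (177 to 197 against 176 to 213 CPM) and BCL2L11, which encodes BIM (55.4 to 61.9 against 48.8 to 66.9 CPM), were not called. Of 24 tested p53 targets, 9 were higher in Jurkat and 10 in 6T-CEM, and CDKN1A, the p21 inhibitor, was not called (3.58 to 5.796 against 4.14 to 4.896 CPM).

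Of 25 tested DNA methylation and polycomb genes, 11 were higher in Jurkat and 12 in 6T-CEM over both times, and 6 and 7 at day 10. For this and the next lists, the shares of all tested genes were 27.3% and 26.9%, and 19.3% and 21.2% at day 10. The directions of single genes given next are those over both times. The methyltransferase genes DNMT1 (502 to 568 against 346 to 411 CPM), DNMT3A (178 to 212 against 105 to 146 CPM) and DNMT3B (35.2 to 50.2 against 30.4 to 37.5 CPM) were higher in Jurkat. EZH2 (228 to 257 against 236 to 364 CPM), EED (37.2 to 40.6 against 45.4 to 62.6 CPM) and SUZ12 (143 to 161 against 145 to 285 CPM), which form the core of PRC2, were higher in 6T-CEM, as was TET2 (28.1 to 36.7 against 35.5 to 59.7 CPM), which oxidises methylcytosine. Of 16 tested imprinted genes, 2 were higher in Jurkat and 5 in 6T-CEM, led by PLAGL1 at 4.297, 4.703, 4.41 and 3.37 CPM in Jurkat and 25.3, 18.5, 20.5 and 19.7 CPM in 6T-CEM. Of 11 tested cytotoxic and effector genes, 4 were higher in Jurkat and 4 in 6T-CEM, with GZMA (29.4 to 38.8 against 14.6 to 23.8 CPM) in Jurkat and GZMK (0 to 0.172 against 1.33 to 4.43 CPM) in 6T-CEM. The median of the cytotoxic list was 0.22 over both times and -0.18 at day 10. Of 14 tested drug response genes, 5 were higher in Jurkat and 5 in 6T-CEM. Of 10 mismatch repair genes, 4 were higher in Jurkat and 2 in 6T-CEM. These lists are short, and their counts are a description to be read beside the shares above. NR3C1, the glucocorticoid receptor, was higher in 6T-CEM (42.5 to 53.3 against 44.5 to 70.4 CPM).

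The differences were not spread evenly along the chromosomes. Chromosome medians of the log2 difference over all tested genes ran from -0.29 on chromosome 4 to 0.26 on chromosome 15. At day 10 alone these were -0.20 and 0.30. Part of the pattern depended on the day, as chromosome 19 went from 0.32 at the earlier times to -0.0033 at day 10. Chromosome 22 went from 0.32 to -0.0023, and chromosome 13 from -0.40 to -0.022. Windows of 10 Mb were read over tested genes with a mean of at least 5 CPM, where at least 15 such genes lay in the window. In these, 48 of 49 genes at 90 to 100 Mb of chromosome 2 were on the Jurkat side, with a median of 0.54. At 240 to 250 Mb of chromosome 2 all 20 of 20 were on that side, and at 70 to 80 Mb of chromosome 15 57 of 67 were (median 0.54). On chromosome 11, 24 of 25 genes at 90 to 100 Mb and 21 of 22 at 100 to 110 Mb were on the 6T-CEM side, with medians of -0.61 and -0.61. These counts and medians are for the mean over days. At day 10 the window medians were 0.63 and 0.40 on chromosome 2, 0.33 on chromosome 15, and -0.35 and -0.67 on chromosome 11. These windows were picked after their values were seen, and copy number was not measured.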
